A study of Mus musculus with 18 samples.

Results

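The SOCS family comprises 8 genes, Cish and Socs1 to Socs7, whose proteins damp cytokine and growth factor signals. They were found on the arrays as the non-control probes that carry one of these symbols as gene name: 14 probes, of which 13 passed a filter that asks for a signal well above background in all 3 arrays of some group. All 8 genes had a probe that passed, among 15413 genes tested in all. The brightest such probe, by mean signal over the 18 arrays, stands for its gene, and those 8 probes were well above background on all 18 arrays, with no saturated spot.

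The study asked how IL-4 changes gene expression in mouse macrophages that lack the transcription factor IRF4. Bone marrow-derived macrophages were grown in human rCSF1 from C57BL6/J mice aged 8 to 12 weeks, with marrow of several animals pooled and sex labelled as mixed. The 6 groups of 3 arrays were Irf4-/- cells cultured as mock, with IL-4 for 4 h and with IL-4 for 18 h, and Irf4+/- cells under the same conditions, all IL-4 at 10 ng/ml. The reference animals are heterozygous littermates, so every group carries at least 1 altered Irf4 allele, and no group has 2 intact ones. Mock cells were kept for 18 h only, so the 4 h IL-4 groups have no mock of their own time. Letters A, B and C name 3 separate experiments.

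IL-4 binds a receptor made of the IL-4 receptor alpha chain with either the common gamma chain or IL13RA1, and the attached JAK kinases phosphorylate STAT6. SOCS proteins share an SH2 domain, which binds phosphorylated tyrosines, and a SOCS box, which joins them to elongins B and C and the cullin CUL5 in a ubiquitin ligase. SOCS1 and SOCS3 also carry a short region that blocks JAK catalytic activity. Several SOCS genes are themselves STAT targets, which closes a negative feedback loop, and in macrophages SOCS1 and SOCS3 are known for restraining interferon and IL-6 signals.

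RefSeq promoter windows on GRCm38.p6 were at hand for 4 of the 8 genes: Cish, Socs1, Socs3 and Socs4. Each window holds 300 bases in the direction of the gene, with the annotated start at base 251. Cish and Socs1 are shown because they had the largest changes with IL-4 in the family, and Socs3 because it had none that passed the test. The Cish window is chr9:107296409-107296708 on the plus strand, the Socs1 window chr16:10785487-10785786 on the minus strand, and the Socs3 window chr11:117969317-117969616 on the minus strand. Capitals mark matches to 3 motifs searched on both strands: TTC and GAA with any 3 bases between them, the spacing bound by several STATs; TTC and GAA with any 4 bases between them, the spacing favoured by STAT6; and GAAA repeated after any 2 bases, as in sites of the IRF family.
Cish: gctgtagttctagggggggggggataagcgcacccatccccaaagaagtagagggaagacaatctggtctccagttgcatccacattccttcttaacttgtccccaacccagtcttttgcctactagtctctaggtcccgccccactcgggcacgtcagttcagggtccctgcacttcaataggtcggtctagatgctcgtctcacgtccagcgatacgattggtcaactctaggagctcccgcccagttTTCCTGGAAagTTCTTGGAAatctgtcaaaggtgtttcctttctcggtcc
Socs1: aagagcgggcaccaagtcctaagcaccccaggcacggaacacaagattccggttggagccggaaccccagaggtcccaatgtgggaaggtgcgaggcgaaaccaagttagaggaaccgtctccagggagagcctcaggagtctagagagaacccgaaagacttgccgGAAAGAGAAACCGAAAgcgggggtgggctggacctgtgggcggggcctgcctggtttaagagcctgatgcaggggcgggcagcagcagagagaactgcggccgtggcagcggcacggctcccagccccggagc
Socs3: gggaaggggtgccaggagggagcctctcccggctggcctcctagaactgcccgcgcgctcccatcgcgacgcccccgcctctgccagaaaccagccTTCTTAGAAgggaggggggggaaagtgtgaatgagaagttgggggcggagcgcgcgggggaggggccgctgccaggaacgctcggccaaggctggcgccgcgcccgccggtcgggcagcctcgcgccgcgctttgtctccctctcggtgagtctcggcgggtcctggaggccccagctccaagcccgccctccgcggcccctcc
The Cish window held 2 matches to TTC and GAA at a spacing of 3 bases, at bases 251 to 259 and 262 to 270, at the annotated start itself. The Socs3 window held 1, at bases 97 to 105. The Socs1 window held 2 overlapping matches to the GAAA repeat, at bases 168 to 177 and 174 to 183, and none to the STAT spacings. None of these windows held the spacing of 4 bases, and the Socs4 window (chr14:47276670-47276969, plus strand) held none of the 3 motifs. Of 32851 windows in the same table, 8.3% held the spacing of 3 bases, 6.95% the spacing of 4 bases and 3.44% the GAAA repeat. A match describes letters and is no evidence of binding.

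Levels below are log2 processed signal minus log2 of the array's 75th percentile, so a level of 0 equals that percentile. Levels of different probes cannot be ranked against each other. Between 63.4% and 74.4% of an array's 43379 non-control spots were well above background. The 1 Irf4 probe did not separate the genotypes: its group means were -0.77 ± 0.22, 1.72 ± 0.33 and 1.52 ± 0.54 in Irf4-/- mock, 4 h and 18 h, against -1.11 ± 0.72, 1.67 ± 0.59 and 1.27 ± 0.48 in Irf4+/- mock, 4 h and 18 h (SD, n = 3 each). The sources used here do not say whether this probe lies in the altered part of the gene, so it does not check the genotype labels. All 8 macrophage markers (Csf1r, Adgre1, Itgam, Cd68, Lyz2, Cd14, Mertk, Fcgr1) were above background on all 18 arrays. Most markers of other lineages were dim or missed on many arrays (Cd3d on 6 arrays, Mcpt8 on 1), while S100a9 averaged 4.21 in mock, 4.20 at 4 h and 4.06 at 18 h, and Cd79b, S100a8, Mpo, Hbb-bt and Col1a2 were above background on all 18. In total RNA of a culture, more cells with a transcript and more transcript per cell cannot be told apart. Tests are limma fits with Benjamini-Hochberg adjustment over all tested genes, genes whose adjusted p was under 0.05 are said to be called, and errors of log2 changes are standard errors with 3 arrays per group. Unless a block is named, these fits ignore the experiment letter, which pairs the samples.

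IL-4 raised 4 of the 8 genes at 4 h in each genotype: Cish, Socs1, Socs2 and Socs5. At 18 h, Cish and Socs1 were still called in Irf4-/- cells, and Cish, Socs1, Socs2 and Socs6 in Irf4+/- cells. None of the 8 fell. At 4 h, 4 of 8 stood against 3.93% of all tested genes called in Irf4-/- cells and 4.27% in Irf4+/- cells. At 18 h, 2 of 8 stood against 3.57% in Irf4-/- cells and 4 of 8 against 4.16% in Irf4+/- cells. With the experiment letter as a replicate block, the 18 h count in Irf4-/- cells was 4 of 8, with Socs5 (adjusted p = 0.00321) and Socs6 (adjusted p = 0.0194) added, against 18.4% of all genes under that fit. The median log2 change over the 8 genes was 1.08 at 4 h and 0.84 at 18 h in Irf4-/- cells, against medians of 0.08 and 0.12 over all genes. In Irf4+/- cells it was 0.86 at 4 h and 0.81 at 18 h, against -0.02 and 0.03 over all genes. The 4 h and 18 h comparisons of a genotype share its mock arrays.

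**Figure D1:**
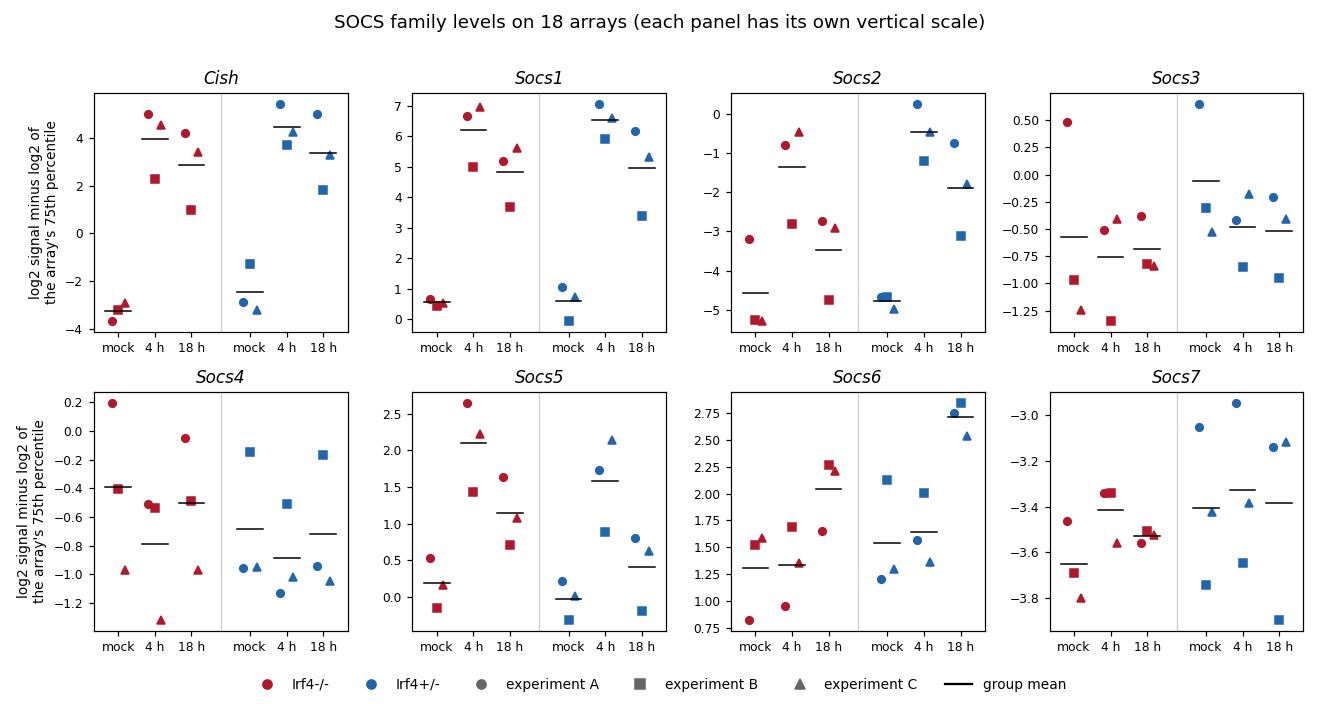
Levels of the 8 genes on each array, as log2 signal minus log2 of the array's 75th percentile (vertical axis, its own scale in each panel), by genotype and condition (horizontal axis), with symbols for experiments A, B and C and bars for group means of 3 arrays. Cish, Socs1, Socs2 and Socs5 lie higher at 4 h than in mock cells of both genotypes, Socs6 lies higher at 18 h, and Socs3, Socs4 and Socs7 spread over the same range in all conditions.

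Cish encodes CIS, an SH2 protein best known as a STAT5 target that binds activated cytokine receptors. Its level was 5.03, 2.30 and 4.57 in experiments A, B and C of Irf4-/- cells at 4 h, and 4.21, 0.99 and 3.42 at 18 h, against -3.67, -3.24 and -2.92 in Irf4-/- mock cells. Irf4+/- cells had 5.45, 3.70 and 4.26 at 4 h and 5.02, 1.83 and 3.28 at 18 h, against -2.87, -1.27 and -3.20 in mock. Every IL-4 array lay above every mock array of its genotype. Over all genes, IL-4 and mock arrays did not overlap, in either direction, for 21.8% at 4 h and 21.8% at 18 h in Irf4-/- cells. In Irf4+/- cells the shares were 16.3% and 14.1%, and all these shares stand beside the genes below too. In experiment A of Irf4-/- cells the processed signal was 39220 units at 4 h, against 154.3 in mock. IL-4 for 4 h changed Cish by 7.24 ± 0.94 in Irf4-/- cells (152-fold, adjusted p = 0.000428) and 6.92 ± 0.94 in Irf4+/- cells (121-fold, adjusted p = 0.000538). The 18 h change was 6.15 ± 0.94 in Irf4-/- cells (adjusted p = 0.00133) and 5.83 ± 0.94 in Irf4+/- cells (adjusted p = 0.00177). Experiment B gave the smallest change of the 3 in each of these comparisons: 5.54 at 4 h and 4.23 at 18 h in Irf4-/- cells, and 4.97 and 3.10 in Irf4+/- cells. Cish kept all 4 calls under every alternative processing tried.

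Socs1 encodes an inhibitor of JAK kinases, with loss in mice leading to lethal excess of interferon signalling. At 4 h its level was 6.65, 5.00 and 6.96 in experiments A, B and C of Irf4-/- cells, and 5.18, 3.66 and 5.62 at 18 h, against 0.68, 0.45 and 0.53 in mock. Irf4+/- cells had 7.06, 5.90 and 6.60 at 4 h and 6.18, 3.40 and 5.32 at 18 h, against 1.07, -0.04 and 0.73 in mock. The IL-4 and mock arrays did not overlap in either genotype. IL-4 for 4 h changed Socs1 by 5.65 ± 0.68 in Irf4-/- cells (50.3-fold, adjusted p = 0.000219) and 5.93 ± 0.68 in Irf4+/- cells (adjusted p = 0.000144). The 18 h change was 4.27 ± 0.68 in Irf4-/- cells (19.3-fold, adjusted p = 0.00188) and 4.38 ± 0.68 in Irf4+/- cells (20.8-fold, adjusted p = 0.00130). The 18 h call in Irf4+/- cells was lost when only the arrays compared entered the fit (adjusted p = 0.0547). The 4 h changes of experiments A, B and C were 5.97, 4.55 and 6.44 in Irf4-/- cells and 5.98, 5.94 and 5.87 in Irf4+/- cells.

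Socs2, best known in mice as a brake on growth hormone signalling, was dim in mock cells. Its level was -0.78, -2.80 and -0.45 in experiments A, B and C of Irf4-/- cells at 4 h and -2.74, -4.75 and -2.90 at 18 h, against -3.20, -5.25 and -5.28 in mock. Irf4+/- cells had 0.27, -1.20 and -0.45 at 4 h and -0.73, -3.12 and -1.78 at 18 h, against -4.69, -4.67 and -4.97 in mock. The IL-4 4 h arrays lay above mock in both genotypes, and the 18 h arrays did so in Irf4+/- cells but overlapped mock in Irf4-/- cells, where mock array A lay above the other two. Socs2 changed at 4 h by 3.23 ± 0.77 in Irf4-/- cells (9.41-fold, adjusted p = 0.0271) and 4.31 ± 0.77 in Irf4+/- cells (19.9-fold, adjusted p = 0.00403). Its 18 h change was 1.12 ± 0.77 in Irf4-/- cells (adjusted p = 0.633) and 2.90 ± 0.77 in Irf4+/- cells (7.47-fold, adjusted p = 0.0477).

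Within a genotype, the calls of Socs2 depended on the background correction. The 4 h call in Irf4-/- cells and the 18 h call in Irf4+/- cells also rested on single arrays, in fits without a block. The 4 h call in Irf4+/- cells held without any 1 array (highest adjusted p = 0.0245). With the replicate block and all arrays, adjusted p was 0.000495 and 5.1e-05 at 4 h in Irf4-/- and Irf4+/- cells, and 0.00103 at 18 h in Irf4+/- cells. In Irf4-/- cells at 4 h the call was lost without IL-4 array A (adjusted p = 0.113), IL-4 array C (0.149), mock array B (0.133) or mock array C (0.128), and the change was 1.34 after normexp background correction (adjusted p = 0.696). In Irf4+/- cells the 4 h call was lost after normexp as well (3.03, adjusted p = 0.0538). Both 4 h calls held after normexp when spots under a share of their background were also dropped. The 18 h call in Irf4+/- cells was lost without mock array A (adjusted p = 0.113), B (0.116) or C (0.152), or IL-4 array A (0.231) or C (0.145). A dimmer probe of Socs2, well above background on 10 arrays, changed by 2.54 ± 0.94 at 4 h and 1.78 ± 0.94 at 18 h in Irf4-/- cells and by 3.11 ± 0.94 and 2.13 ± 0.94 in Irf4+/- cells, none of them called (lowest adjusted p = 0.102 over 27497 probes tested separately). Over both genotypes its 4 h change of 2.82 ± 0.66 was called (adjusted p = 0.0132). Levels of the Socs2 probes had a Pearson correlation of 0.86 over the 18 arrays.

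Socs3 encodes the JAK inhibitor that acts on the IL-6 receptor chain gp130. Its level was -0.51, -1.34 and -0.41 in experiments A, B and C of Irf4-/- cells at 4 h and -0.38, -0.82 and -0.84 at 18 h, against 0.48, -0.97 and -1.24 in mock. Irf4+/- cells had -0.42, -0.85 and -0.18 at 4 h and -0.20, -0.95 and -0.41 at 18 h, against 0.65, -0.31 and -0.53 in mock. The groups overlapped in every comparison, with mock array A the highest of its group in both genotypes. Socs3 changed at 4 h by -0.18 (95% interval -1.09 to 0.73, adjusted p = 0.923) in Irf4-/- cells and -0.42 (-1.33 to 0.49, adjusted p = 0.864) in Irf4+/- cells. At 18 h it was -0.11 (-1.02 to 0.81) in Irf4-/- cells and -0.46 (-1.37 to 0.45) in Irf4+/- cells. Without mock array A of Irf4-/- cells, the value there was 0.35 at 4 h and 0.42 at 18 h, neither called. That array had the highest 75th percentile of the 18 (1961 units, against 719.2 on the lowest), whose part in the value was not tested.

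Socs5, a member that has been reported in mouse T cells to bind the IL-4 receptor alpha chain, was 2.65, 1.44 and 2.22 in experiments A, B and C of Irf4-/- cells at 4 h and 1.64, 0.70 and 1.07 at 18 h, against 0.54, -0.15 and 0.17 in mock. Irf4+/- cells had 1.74, 0.88 and 2.15 at 4 h and 0.80, -0.19 and 0.62 at 18 h, against 0.22, -0.31 and 0.01 in mock. The 4 h arrays lay above mock in both genotypes. Socs5 changed at 4 h by 1.92 ± 0.39 in Irf4-/- cells (3.78-fold, adjusted p = 0.00980) and 1.62 ± 0.39 in Irf4+/- cells (3.07-fold, adjusted p = 0.0262). At 18 h it was 0.95 ± 0.39 in Irf4-/- cells (adjusted p = 0.273) and 0.44 ± 0.39 in Irf4+/- cells (adjusted p = 0.904). Its 4 h call in Irf4-/- cells was lost without IL-4 array A (adjusted p = 0.0558), IL-4 array C (0.0516) or mock array B (0.0562). The 4 h call in Irf4+/- cells was lost without mock array A (adjusted p = 0.0501), B (0.108) or C (0.0769), or IL-4 array A (0.0977) or C (0.122). Those fits had no block. With the replicate block and all arrays, the 4 h change of Socs5 had an adjusted p of 1.77e-05 in Irf4-/- cells and 5.68e-05 in Irf4+/- cells.

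Socs6, whose protein binds KIT and components of insulin signalling, had another time course. It was 0.95, 1.69 and 1.35 in experiments A, B and C of Irf4-/- cells at 4 h and 1.65, 2.27 and 2.21 at 18 h, against 0.82, 1.52 and 1.59 in mock. Irf4+/- cells had 1.57, 2.01 and 1.36 at 4 h and 2.76, 2.85 and 2.54 at 18 h, against 1.20, 2.13 and 1.30 in mock. The 4 h arrays overlapped mock, and the 18 h arrays lay above mock, in both genotypes. At 18 h, 21.8% of all genes in Irf4-/- cells and 14.1% in Irf4+/- cells had no overlap with mock in either direction. Socs6 changed at 4 h by 0.02 (95% interval -0.61 to 0.66) in Irf4-/- cells and 0.10 (-0.53 to 0.73) in Irf4+/- cells. At 18 h it was 0.73 ± 0.30 in Irf4-/- cells (1.66-fold, adjusted p = 0.272) and 1.17 ± 0.30 in Irf4+/- cells (2.25-fold, adjusted p = 0.0371). In the fit with the replicate block, the 18 h value in Irf4-/- cells was called (adjusted p = 0.0194). The 18 h call in Irf4+/- cells was lost without mock array A (adjusted p = 0.154) or C (0.155) or IL-4 array A (0.120), B (0.104) or C (0.0743). It was also lost under median scaling (0.0818), quantile normalization (0.0681) and normexp (0.154). Both other kept probes of Socs6 moved alike, by 0.78 and 0.89 in Irf4-/- cells and by 1.36 and 1.27 in Irf4+/- cells at 18 h, and their levels correlated with the main probe at 0.91 and 0.95 over 18 arrays. The fourth probe was above background on 1 array and was left out.

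Socs4 and Socs7, whose roles are less well known, did not pass the test in any comparison, without a block or with the replicate block. Socs4 was -0.51, -0.54 and -1.32 in experiments A, B and C of Irf4-/- cells at 4 h, against 0.20, -0.40 and -0.97 in mock, and -1.13, -0.51 and -1.02 in Irf4+/- cells at 4 h, against -0.95, -0.15 and -0.95 in mock. Socs4 changed at 4 h by -0.40 (95% interval -1.18 to 0.39) in Irf4-/- cells and -0.20 (-0.98 to 0.58) in Irf4+/- cells. Both other Socs4 probes went the other way at 4 h, by 0.15 and 0.17 in Irf4-/- cells and 0.11 and 0.14 in Irf4+/- cells, and correlated with the main probe at -0.17 and -0.32 over 18 arrays but at 0.80 with each other. With slide as a block the main probe was called at 4 h in Irf4-/- cells (-0.44, adjusted p = 0.0494) and over both genotypes (-0.32, adjusted p = 0.0189), and likewise with pool as a random block (adjusted p = 0.0297 and 0.0154). Slide as a random block called it over both genotypes (adjusted p = 0.0212) and not in Irf4-/- cells (0.0528). Because its probes disagree, no direction is given for Socs4. Socs7 was dim at -3.34, -3.34 and -3.56 in Irf4-/- cells at 4 h, against -3.46, -3.69 and -3.80 in mock, and at -2.95, -3.65 and -3.39 in Irf4+/- cells at 4 h, against -3.06, -3.74 and -3.42 in mock. Its 4 h change was 0.24 (95% interval -0.27 to 0.75) in Irf4-/- cells and 0.08 (-0.43 to 0.59) in Irf4+/- cells.

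**Figure D2:**
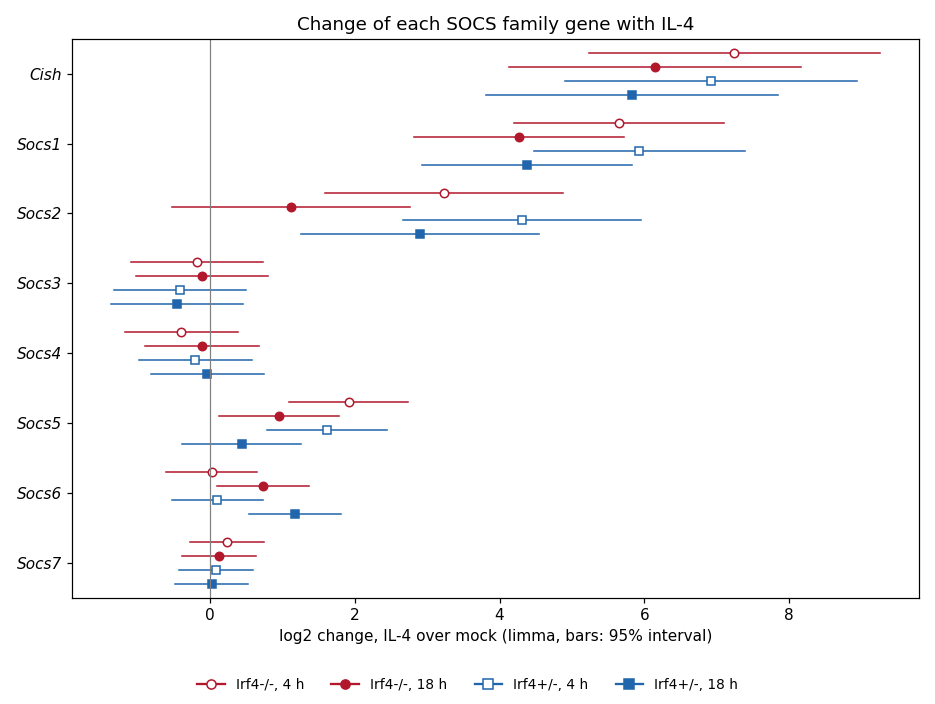
Log2 change of each gene with IL-4 over mock (horizontal axis), at 4 h (open symbols) and 18 h (filled symbols) in Irf4-/- cells (red circles) and Irf4+/- cells (blue squares), with 95% intervals from limma, 3 arrays per group. Cish changed by 5.83 to 7.24 and Socs1 by 4.27 to 5.93, and the intervals of Socs3, Socs4 and Socs7 all span 0.

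Averaged over the genotypes, 4 genes were called at 4 h (Cish 7.08 ± 0.67, Socs1 5.79 ± 0.48, Socs2 3.77 ± 0.54, Socs5 1.77 ± 0.27), against 11.1% of all genes. At 18 h the 4 called were Cish (5.99 ± 0.67), Socs1 (4.32 ± 0.48), Socs2 (2.01 ± 0.54, adjusted p = 0.0281) and Socs6 (0.95 ± 0.21, adjusted p = 0.00777), against 9.91%. The replicate block added Socs5 at 18 h (0.70, adjusted p = 0.00121), which made 5 of 8 against 30.2% of all genes. All 4 calls at 4 h held without any 1 of the 12 arrays compared and under every other alternative tried. At 18 h the call of Socs2 was lost without IL-4 array A or C, or mock array B or C, of either genotype (adjusted p between 0.0521 and 0.0796).

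The later time was set directly against the earlier one, on arrays that do not include mock. Time with IL-4 and time in culture differ together between these arrays. With no mock at 4 h, they cannot be told apart. Over both genotypes, Socs5 was lower at 18 h than at 4 h (-1.07 ± 0.27, adjusted p = 0.0345) and Socs6 was higher (0.89 ± 0.21, adjusted p = 0.0228), with 5.09% of all genes called. Every experiment of each genotype had that direction for both genes. Both calls were lost without array A, or array C, at 4 h in either genotype, and without array B at 18 h in either genotype or array C of Irf4-/- cells at 18 h (adjusted p between 0.0512 and 0.0910). Without array C of Irf4+/- cells at 18 h, only Socs5 was lost of the pair (adjusted p = 0.0512). Without array B of Irf4-/- cells at 4 h, 4 genes were called, with Socs1 (adjusted p = 0.0487) and Socs2 (0.0335) added. Socs1 (-1.47 ± 0.48, adjusted p = 0.106) and Socs2 (-1.77 ± 0.54, adjusted p = 0.0824) had lower values in all 6 pairs without passing the test, though Socs1 passed it without array A of Irf4+/- cells at 18 h (adjusted p = 0.0483). With the replicate block, these 4 genes were called over both genotypes, Socs1 at an adjusted p of 0.00176 and Socs2 at 0.00230, against 22.3% of all genes. Cish was -1.09 ± 0.67 at 18 h against 4 h (adjusted p = 0.498) and negative in all 6 pairs.

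Within a genotype, none of the 8 genes was called between 18 h and 4 h by limma without the block, against 0.571% of all genes in Irf4-/- cells and 1.15% in Irf4+/- cells, and 3 of 8 had an unadjusted p under 0.05 in each, against 8.05% of all genes in Irf4-/- cells and 9.5% in Irf4+/- cells. With the replicate block, Socs1, Socs2, Socs5 and Socs6 were called in Irf4-/- cells (4 of 8, against 8.39%) and Socs1, Socs5 and Socs6 in Irf4+/- cells (3 of 8, against 11.5%). Socs5 changed by -0.96 ± 0.18 in Irf4-/- cells (adjusted p = 0.00681) and by -1.18 ± 0.18 in Irf4+/- cells (adjusted p = 0.00141) in that fit. Socs6 changed by 0.71 ± 0.19 in Irf4-/- cells (adjusted p = 0.0404) and by 1.07 ± 0.19 in Irf4+/- cells (adjusted p = 0.00373). The family thus held genes with opposite differences between the times.

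**Figure D3:**
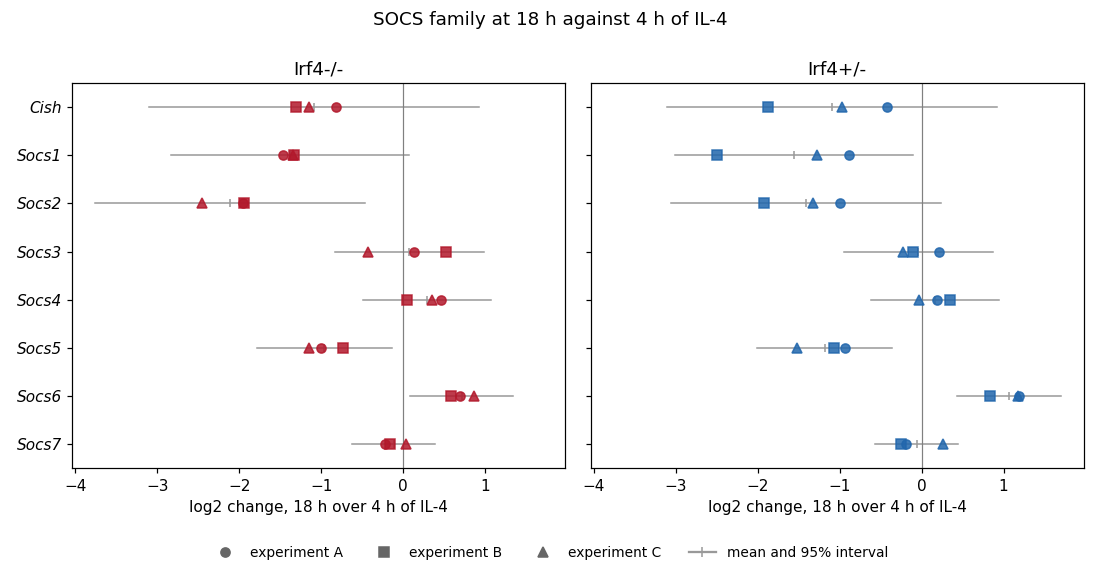
Log2 change from 4 h to 18 h of IL-4 (horizontal axis) in Irf4-/- cells (left) and Irf4+/- cells (right), with 1 symbol per experiment and grey bars for the mean and 95% interval of limma without the block. Socs1, Socs2 and Socs5 lie below 0 and Socs6 above 0 in every experiment of both genotypes.

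No member was called between the genotypes. In mock, 0 of 8 were called against 0% of all genes, at 4 h 0 of 8 against 0%, and at 18 h 0 of 8 against 0.026%, by limma. At an unadjusted p under 0.05 there were 0, 0 and 1 of the 8 (Socs6 at 18 h), against 2.33%, 0.779% and 3.01% of all genes. The arrays of the genotypes did not overlap for 0 of 8 genes in mock (6.78% of all genes), 0 of 8 at 4 h (2.54%) and 1 of 8 at 18 h (Socs6, 5.96%). With the replicate block there were still no calls in a single condition (0.0324% of all genes in mock, 0.026% at 4 h and 0.435% at 18 h). The response itself was compared too: the difference of the IL-4 change, Irf4-/- minus Irf4+/-, was called for 0 of 8 genes at 4 h (0% of all genes) and 0 of 8 at 18 h (0%), and no member had an unadjusted p under 0.05 at either time (0.37% of all genes at 4 h and 0.545% at 18 h).

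Without the block, the intervals of these differences were wide. The difference of the response at 4 h was 0.33 for Cish (95% interval -2.52 to 3.17) and -0.28 for Socs1 (-2.33 to 1.77). At 18 h it was 0.32 for Cish (-2.52 to 3.17), -0.11 for Socs1 (-2.17 to 1.94) and -1.78 for Socs2 (-4.11 to 0.54). The dimmer Socs2 probe gave -0.35 ± 1.32 for the 18 h response. The replicate block left the differences as they were and gave smaller standard errors: 0.54 for Socs1 at each time, against 0.96 without it, and 0.67 for Socs2 at 18 h, against 1.09. It called none of them (adjusted p = 0.9996 for Socs2 at 18 h), nor any other of the genes tested.

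Socs2 at 18 h was -2.74, -4.75 and -2.90 in experiments A, B and C of Irf4-/- cells, against -0.73, -3.12 and -1.78 in Irf4+/- cells. The groups overlapped, though Irf4-/- was lower within each experiment, by log2 differences of -2.01, -1.63 and -1.12, with a mean of -1.59 ± 0.77 (adjusted p = 0.9998, and 0.167 with the replicate block). Its dimmer probe differed by -1.14 ± 0.94. Socs6 at 18 h was 1.65, 2.27 and 2.21 in Irf4-/- cells, against 2.76, 2.85 and 2.54 in Irf4+/- cells. The mean difference was -0.67 ± 0.30 (adjusted p = 0.9998, and 0.145 with the replicate block), with -1.11, -0.58 and -0.33 in experiments A, B and C, and both other kept probes gave -0.54 and -0.48. Socs5 was 0.73 ± 0.39 higher in Irf4-/- cells at 18 h by value, with 0.84, 0.89 and 0.45 in the experiments, also not called.

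Averaged over the conditions, 0 of 8 genes were called between the genotypes, against 0% of all genes, and 2 of 8 had an unadjusted p under 0.05, against 8.97% of all genes. With the replicate block, 2 of 8 were called against 8.15% of all genes: Socs5 (0.49 ± 0.11, adjusted p = 0.0194) and Socs6 (-0.41 ± 0.11, adjusted p = 0.0423). Neither was called with slide as a block (adjusted p = 0.880 and 0.965), with slide as a random block (0.993 for both) or with the pool as a random block, and the 1256 genes called over all genes with the replicate block stood against 2, 0 and 0 under these blocks. Genotype and slide can hardly be told apart, because 6 of the 7 slides held 1 genotype only and no slide held both genotypes of 1 condition. With slide as a block, which rests on the 1 slide that held both genotypes, these mean differences were 0.27 for Socs5 and 0.07 for Socs6, and the 18 h differences were -3.10 for Socs2 and -0.13 for Socs6. Experiments B and C each lay within 1 scan day, and their values stand above. The part of slide in these differences was not tested further. Among the 4 neutrophil markers with a probe, S100a8 averaged 0.89 on Irf4-/- arrays and 0.17 on Irf4+/- arrays, S100a9 4.34 and 3.97, Mpo -0.35 and -0.84, and Elane -6.38 and -6.99, with none of the 3 tested (Elane did not pass the filter) called in any single condition, and their part was not tested. The IL-4 comparisons of experiments A and B lay within single slides.

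**Figure D4:**
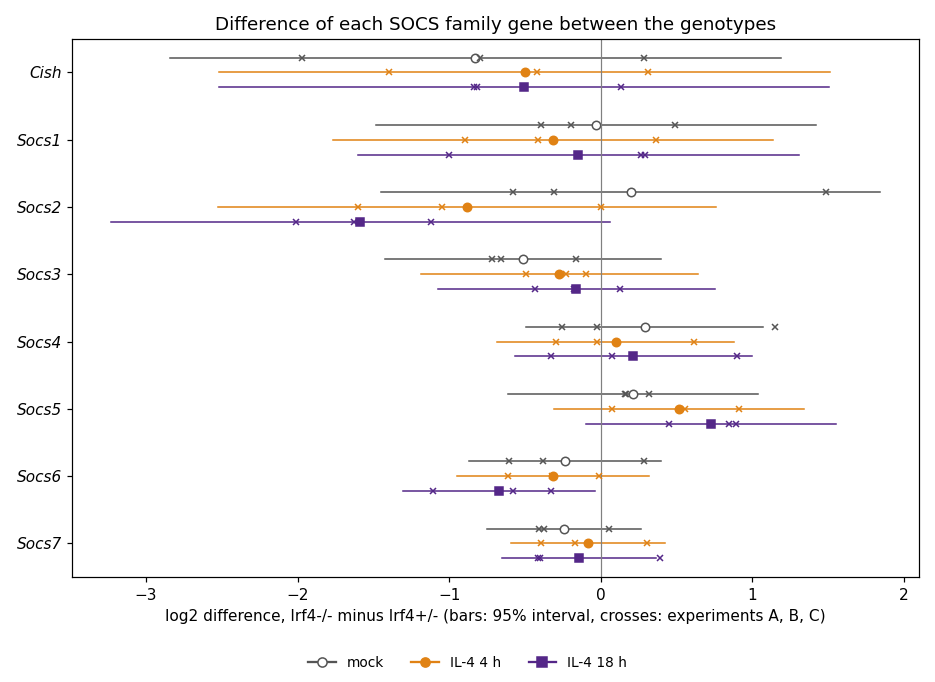
Log2 difference of each gene, Irf4-/- minus Irf4+/- (horizontal axis), in mock cells, at 4 h and at 18 h of IL-4, with 95% intervals of limma (bars) and the values of experiments A, B and C (crosses). The intervals span 0 except for Socs6 at 18 h, whose mean is -0.67 and upper bound -0.04, and none of the differences was called.

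Levels of Cish, Socs1 and Socs2 ran together on the IL-4 arrays but not on the mock arrays. Over 18 arrays, which fall into mock and IL-4 sets and share pools and slides, the Pearson correlation was 0.97 for Cish and Socs1, 0.90 for Socs1 and Socs2 and 0.87 for Cish and Socs2. Within the 12 IL-4 arrays these were 0.91, 0.91 and 0.89, and within the 6 mock arrays -0.70, 0.14 and -0.26. Socs3, Socs5 and Socs7 also ran with Cish, Socs1 and Socs2 within the IL-4 arrays, at 0.51 to 0.76. Socs6 ran against Cish, Socs1 and Socs2 within the IL-4 arrays, at -0.48, -0.63 and -0.45. Within the mock arrays its values with them were 0.88, -0.80 and -0.59. The main probe of Socs4 ran against the same genes within the IL-4 arrays, at -0.46, -0.67 and -0.60. The IL-4 arrays hold both the 4 h and the 18 h groups. Socs5 and Socs6 ran opposite: -0.95 within the 12 IL-4 arrays and -0.89 within the 6 mock arrays, against -0.35 over all 18. These correlations are descriptions of 1 set of arrays.

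Outside the family, on the same shared arrays, the genes with the most similar pattern over the 18 arrays, out of 15355, were taken as the 5 with the highest correlation for each member called with IL-4. They are named in falling order, and where a list has only its first and last value the others lie between. For Cish these were Batf3 (0.98), St8sia1, Pdcd1lg2, Wdfy2 and Picalm (0.97). Values over 18 arrays include the step from mock to IL-4. Within the 12 IL-4 arrays these 5 genes had 0.934, 0.855, 0.948, 0.802 and 0.805 with Cish. Over all the lists here, values within the IL-4 arrays lay between 0.802 and 0.978. Pdcd1lg2, the gene of the PD-1 ligand PD-L2, changed by 6.91 ± 0.54 in Irf4-/- cells and 6.36 ± 0.54 in Irf4+/- cells at 4 h. For Socs1 they included Tarbp2 (0.99), Plekha3 (0.98), Tppp and Pxdc1 (0.97 each), and Tarbp2, a partner of Dicer, changed by 2.44 ± 0.35 in Irf4-/- cells and 2.55 ± 0.35 in Irf4+/- cells at 4 h. For Socs2 they were Casp6 (0.94), Gatc, Tiam1, Mgam and Glrx (0.93). For Socs5 they were Heatr3 (0.97), Slc29a2, Tex2, Rcn1 and Mrpl15 (0.95), and for Socs6 Nat9 (0.93), Man2a2, Anxa4, Klk1b21 and Daglb (0.90). Anxa4 changed by 0.14 ± 0.23 at 4 h and 0.87 ± 0.23 at 18 h in Irf4-/- cells (adjusted p = 0.0482 at 18 h), and by 0.14 ± 0.23 and 0.87 ± 0.23 in Irf4+/- cells (adjusted p = 0.0418 at 18 h). Daglb was also called at 18 h in both genotypes, and Nat9, Man2a2 and Klk1b21 in neither. All these genes were picked for their correlation on the same arrays, so a similar time course follows from the choice.

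The receptors, kinases and STATs that SOCS proteins act on changed less than Cish and Socs1. Il4ra, the receptor chain that all IL-4 signals use, rose at 4 h by 1.47 ± 0.33 in Irf4-/- cells (adjusted p = 0.0186) and 1.35 ± 0.33 in Irf4+/- cells (adjusted p = 0.0295), and was lower at 18 h than at 4 h by log2 changes of -1.79 ± 0.33 (adjusted p = 0.0205) and -1.76 ± 0.33 (adjusted p = 0.0157). Jak2, the kinase of the growth hormone, GM-CSF and interferon gamma receptors, rose at 4 h by 1.39 ± 0.19 in Irf4-/- cells and 1.55 ± 0.19 in Irf4+/- cells, and at 18 h by 0.93 ± 0.19 and 1.06 ± 0.19. Jak1, Jak3 and Tyk2 had changes between -0.75 and 0.44, none called, though Jak3 at 18 h was called with the replicate block (-0.73, adjusted p = 0.00420, in Irf4-/- cells and -0.75, adjusted p = 0.00326, in Irf4+/- cells). Stat6 fell at 4 h in Irf4-/- cells (-0.57 ± 0.13, adjusted p = 0.0260) and was -0.49 ± 0.13 in Irf4+/- cells (adjusted p = 0.0559, and 0.00469 with the replicate block). Stat4 fell at 4 h (-1.70 ± 0.35 in Irf4-/- cells and -1.56 ± 0.35 in Irf4+/- cells) and at 18 h (-1.77 ± 0.35 and -2.16 ± 0.35). Of the 11 JAKs and STATs, 1 rose and 2 fell at 4 h in Irf4-/- cells, and 1 rose and 1 fell in Irf4+/- cells at 4 h and in both genotypes at 18 h, beside 3.93% of all genes called at 4 h and 3.57% at 18 h in Irf4-/- cells, and 4.27% and 4.16% in Irf4+/- cells. The replicate block called 3 of the 11 at 4 h and 4 at 18 h in each genotype, adding Jak3 and Stat2 at 18 h. That fit called 18.2% of all genes at 4 h and 18.4% at 18 h in Irf4-/- cells, and 18.3% and 15.5% in Irf4+/- cells. Stat2, which joins the interferon-activated factor ISGF3, was -1.18 ± 0.47 in Irf4-/- cells (adjusted p = 0.261, and 0.00387 with that block) and -1.21 ± 0.47 in Irf4+/- cells (adjusted p = 0.236, and 0.00289) at 18 h. Stat3, Stat5a and Stat5b had changes between -0.20 and 0.47, none called.

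**Figure D5:**
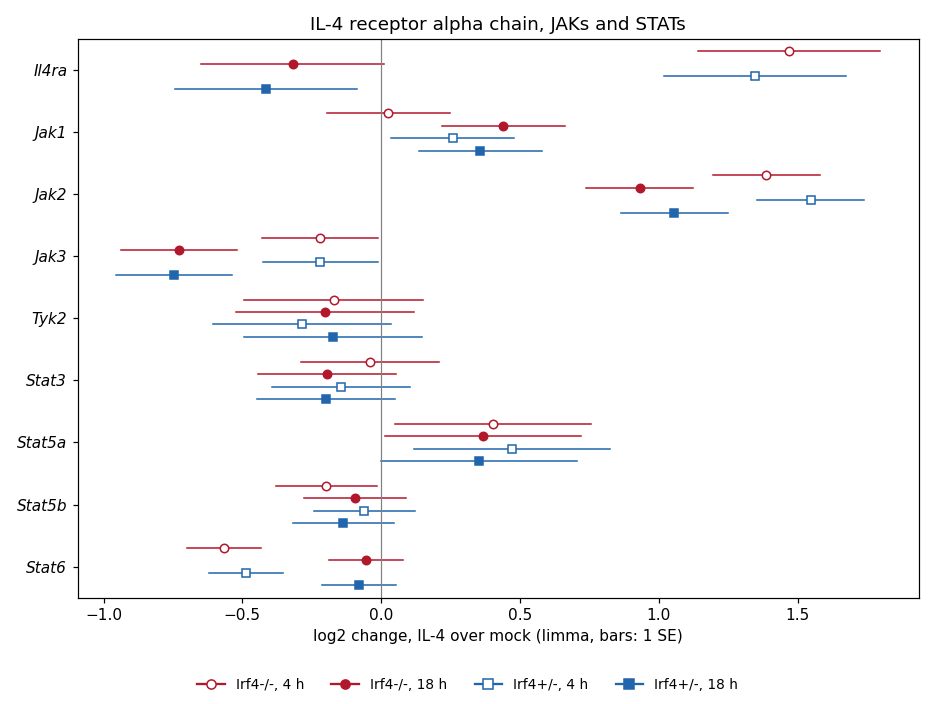
Log2 change with IL-4 over mock (horizontal axis, bars of 1 standard error) of the IL-4 receptor alpha chain, the JAKs and 4 STATs, at 4 h (open) and 18 h (filled) in Irf4-/- cells (red circles) and Irf4+/- cells (blue squares). Il4ra lies near 1.4 at 4 h and below 0 at 18 h, Jak2 lies above 0.9 throughout, and Stat6 lies below 0 at 4 h.

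Counts over the pathway lists were read beside the share of all genes called. Of 16 tested receptors, 3 rose and 1 fell at 4 h in Irf4-/- cells, and 3 rose and 2 fell in Irf4+/- cells. Besides Il4ra these were Csf2rb, the common beta chain (1.18 ± 0.23 in Irf4-/- cells and 1.22 ± 0.23 in Irf4+/- cells), Il6st, which encodes gp130 (0.97 ± 0.16 and 1.05 ± 0.16), Il13ra1 (-1.13 ± 0.27 and -1.11 ± 0.27) and Ifnar1, which was called in Irf4+/- cells (-0.61 ± 0.15) and was -0.56 ± 0.15 in Irf4-/- cells (adjusted p = 0.0578, and 0.0111 with the replicate block). At 18 h Csf2rb and Il6st rose and Il13ra1 fell in both genotypes, with Il13ra1 at -1.82 ± 0.27 in Irf4-/- cells and -2.12 ± 0.27 in Irf4+/- cells. The median of the 16 receptors was -0.004 in Irf4-/- cells and -0.04 in Irf4+/- cells at 4 h, beside 0.08 and -0.02 over all genes. With the replicate block, 9 receptors were called at 4 h in Irf4-/- cells (18.2% of all genes) and 8 in Irf4+/- cells (18.3%), and at 18 h 7 in Irf4-/- cells (18.4%) and 6 in Irf4+/- cells (15.5%).

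Among 15 other inhibitors of JAK-STAT signalling, Pias3 fell at 4 h in Irf4+/- cells (-0.83 ± 0.20) and was -0.56 ± 0.20 in Irf4-/- cells (adjusted p = 0.196, and 0.0131 with the replicate block). Usp18, which restrains the interferon receptor, fell at 18 h (-1.53 ± 0.32 in Irf4-/- cells and -1.21 ± 0.32 in Irf4+/- cells). The replicate block called 6 and 5 of these 15 at 4 h, and 5 and 7 at 18 h, in Irf4-/- and Irf4+/- cells. Beside this and the lists below, the block called 18.2% and 18.3% of all genes at 4 h in Irf4-/- and Irf4+/- cells. At 18 h it called 18.4% and 15.5% of all genes. None of the 10 partners of the SOCS box, such as the elongins and CUL5, was called by limma at either time in either genotype, and the replicate block called 0 at 4 h and 1 at 18 h in Irf4-/- cells, and 2 and 0 in Irf4+/- cells. Of 18 tested genes of other SOCS box proteins, 0 were called at 4 h without the block, and 3 in Irf4-/- cells and 4 in Irf4+/- cells with it, among them Spsb4 (-1.82 ± 0.63, adjusted p = 0.000576 with the block, in Irf4-/- cells and -1.65 ± 0.63, adjusted p = 0.00104, in Irf4+/- cells). At 18 h the block called 5 and 6. At that time Asb2, an adaptor that targets filamins, fell (-2.52 ± 0.33 in Irf4-/- cells and -3.44 ± 0.33 in Irf4+/- cells), and Asb4 rose in Irf4-/- cells (1.61 ± 0.38) and was 1.41 ± 0.38 in Irf4+/- cells (adjusted p = 0.0537, and 0.00800 with the replicate block). Of 9 tested cytokine ligands, Ifnb1 fell at 18 h (-1.73 ± 0.43 in Irf4-/- cells and -2.26 ± 0.43 in Irf4+/- cells), and none was called at 4 h. The block called 1 ligand at 4 h in each genotype, and 4 in Irf4-/- cells and 3 in Irf4+/- cells at 18 h. Of 12 other STAT targets, Pim3, a kinase gene, rose at 4 h by 2.62 ± 0.27 in Irf4-/- cells and 2.18 ± 0.27 in Irf4+/- cells, and at 18 h by 2.22 ± 0.27 and 1.94 ± 0.27. Tfrc, the transferrin receptor, rose at 18 h by 1.47 ± 0.37 in Irf4-/- cells and 2.42 ± 0.37 in Irf4+/- cells, and at 4 h by 1.65 ± 0.37 in Irf4+/- cells, with 1.37 ± 0.37 in Irf4-/- cells (adjusted p = 0.0578, called with the block). The block called 3 of the 12 in Irf4-/- cells and 4 in Irf4+/- cells at 4 h, and 4 and 6 at 18 h. No member of these 7 lists was called between the genotypes in any single condition, with or without the block.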

How the data were processed

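RNA was hybridised to 18 single-colour Agilent arrays, 3 per group, with groups and experiment letters taken from the sample titles. The authors extracted each spot's processed intensity, mean intensity and local background median intensity with Agilent Feature Extraction 9.5.1, per the submitters' processing notes and the file headers, with no scaling between arrays. A deposited table holds the authors' log2 values. No source used here says how it was made, but over 23678 bright probes its columns matched the log2 difference from the Irf4+/- mock array of the same letter after scaling to the 75th percentile (correlation 1.00, slope 1.00). Column medians were -0.18 to 0.21, and the Irf4+/- mock columns were 0.

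Control and outlier spots were left out, spots of a probe averaged, and each array's log2 intensity was set against its own 75th percentile (719.2 to 1961 units). Probes had to be well above background in every array of some group (27497 of 41174 kept). Genes were named through RefSeq accession, then symbol, then synonym; 15413 were tested, each by its kept probe of highest mean. limma 3.58.1 in R 4.3.3 (statmod 1.5.0) fitted 1 mean per group with eBayes and Benjamini-Hochberg adjustment, two-sided. Named genes were the 8 members with all their probes, called members of 7 pathway lists (at most 6 per list and comparison), 10 receptor, JAK and STAT genes throughout, and 5 nearest patterns per called member; 3 genes that these rules and the marker lists cover are not reported here. The members and lists were chosen with earlier results of these data known.

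Arrays of the same letter deviated together (27 pairs across genotypes, r 0.435 to 0.725, and 18 within, r up to 0.876), and the series design describes littermates per experiment, so the letters pair the samples. The main fit ignores this pairing. Over all genes it called fewer than the replicate block in each IL-4 comparison with mock or between times. The replicate block is given where it changes a call of a family gene or the count of a list, and for the calls of Socs2 and Socs5 against mock. Fits that left out 1 array had no block. Alternatives were other background corrections, scalings, filters, probes, blocks and left-out arrays. Simulated data with known changes were used to check the fit. The simulated arrays were independent, with no shared letter, pool or slide, so they do not show how the fit behaves on paired arrays. Precision is limited by 3 arrays per group. Python 3.11.15 and matplotlib 3.10.9 read files and drew plots.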

Additional observations from a re-analysis of the deposited data

How the results depend on the processing

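Of 24 called results for single family genes, 13 stayed called under every alternative tried and 11 were lost under at least 1, none with a change of sign. Leaving out 1 array, the number of the 8 genes called ranged from 2 to 4 at 4 h in Irf4-/- cells, from 3 to 4 at 4 h in Irf4+/- cells, from 2 to 3 at 18 h in Irf4+/- cells, and from 0 to 4 between 18 h and 4 h over both genotypes. After normexp background correction the count was 2 at 4 h and 2 at 18 h in Irf4+/- cells, 2 at 18 h over both genotypes, and 1 between 18 h and 4 h. In Irf4+/- cells at 18 h it was 2 under median scaling, 2 without a filter, 2 with the lowest kept probe and 1 with only the groups compared, a fit that held 2 genes at 4 h in Irf4-/- cells. Between 18 h and 4 h over both genotypes it was 1 under median scaling, without a filter or with only the groups compared. With the replicate block it was 4 at 18 h in Irf4-/- cells, 4 between 18 h and 4 h in Irf4-/- cells, 3 in Irf4+/- cells and 4 over both, and 2 between the genotypes over all conditions. Slide as a block, slide as a random block (chosen after seeing the data) and pool of cells as a random block gave 4 in each of these comparisons between times and at 18 h in Irf4-/- cells, and the authors' deposited table gave 1 between times in Irf4+/- cells. Over all genes, slide, random slide and random pool blocks called 3630, 4229 and 5571 of 15413 at 18 h in Irf4-/- cells. Between times they called 2770, 3449 and 3201 in Irf4-/- cells and 1969, 2920 and 3562 in Irf4+/- cells. Over both genotypes they called 4685, 5332 and 5641 between times. Besides the changes given above for it and Socs5 at 18 h over both genotypes, the replicate block changed no other call of a family gene. Over all genes, calls at 4 h numbered 605 in Irf4-/- cells and 658 in Irf4+/- cells, against 221 and 234 after normexp and 2805 and 2814 with the block. When spots under a share of their background were also dropped, normexp called 533 genes in each genotype at 4 h.

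No called result changed sign. Results not called whose sign changed by over 1 standard error are given next, and the cause was not tested. Leaving out 1 array, Socs3 in Irf4-/- cells ranged from -0.51 to 0.35 at 4 h and from -0.44 to 0.42 at 18 h, highest without mock array A at both times. The lowest kept probe gave Socs4 0.17 at 4 h in Irf4-/- cells and 0.16 over both genotypes, and Socs2 -0.79 between genotypes in mock. After normexp, the dim Socs7 was -0.34 at 4 h and -0.17 at 18 h in Irf4-/- cells; between times 0.16 in Irf4-/- cells, 0.58 in Irf4+/- cells and 0.37 over both; 0.43 between genotypes in mock; and -0.87 and -1.29 for the difference of the response at 4 h and 18 h. It was 0.15 between times in Irf4-/- cells when spots under a share of their background were also dropped, and 0.20 in Irf4+/- cells without IL-4 18 h array B. The Socs6 difference of the 18 h response after normexp was 0.047. With slide as a block, the genotype difference in mock was -0.70 for Socs2 and 0.17 for Socs6, at 4 h 0.18 for Socs6, and over all conditions 0.0741 for Socs6 and -0.0329 for Socs4. Normexp moved the median of all genes by 0.20 at 4 h in Irf4+/- cells and by -0.22 in Irf4-/- cells. The dimmer Socs2 probe was well above background on 10 of the 18 arrays, which limits what it can show.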

Other observations

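A further probe is described in the files as suppressor of cytokine signaling 3 but has TC1561961 as its gene name, so the rule for members did not take it. Its level averaged 1.98 ± 0.28, 2.52 ± 0.52 and 2.56 ± 0.57 in Irf4-/- mock, 4 h and 18 h arrays, and 2.58 ± 0.26, 2.49 ± 0.24 and 2.53 ± 0.39 in Irf4+/- mock, 4 h and 18 h arrays (SD, n = 3 each). Its Pearson correlation with the Socs3 probe was 0.13 over the 18 arrays.

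Among other SOCS box genes, the time between 4 h and 18 h of IL-4 held large differences. Asb2 was lower at 18 h than at 4 h, by -2.63 ± 0.33 in Irf4-/- cells (adjusted p = 0.00260) and -3.44 ± 0.33 in Irf4+/- cells (adjusted p = 0.000144). Spsb4, whose protein family targets inducible nitric oxide synthase, was higher at 18 h in Irf4+/- cells (2.99 ± 0.63, adjusted p = 0.0328) and was 2.55 ± 0.63 in Irf4-/- cells (adjusted p = 0.107, and 0.000207 with the replicate block). Against mock, Spsb4 was -1.82 ± 0.63 at 4 h in Irf4-/- cells and -1.65 ± 0.63 in Irf4+/- cells, neither called without the block.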
